A study of Mus musculus with 2 samples.

Results

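Receptors for the Fc part of antibodies were followed through the leukocytes of the mouse omentum, a fold of visceral fat that carries lymphoid clusters known as milky spots. The 7 genes, chosen by symbol, were Fcgr1, Fcgr2b, Fcgr3 and Fcgr4 for IgG, Fcer1a for IgE, the shared signalling chain Fcer1g and the IgM receptor Fcmr. All 7 were found among the 19960 genes listed. By droplet-based single-cell RNA sequencing, transcripts tagged with unique molecular identifiers (UMIs) were counted in 1 library of wild-type (WT) and 1 library of Postn-DTR omentum. Postn-DTR animals carry a diphtheria toxin receptor sequence inserted at the Postn locus, so that the Postn promoter decides which cells become sensitive to the toxin. Both groups received diphtheria toxin and were collected 5 days later, and each library pooled the mice of its group. There are thus no replicates, no test between the groups was made, and every interval below is a 95% interval that covers counting error only.

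IgG receptors come in activating forms, which signal through the γ chain encoded by Fcer1g, and 1 inhibitory form, Fcgr2b, which dampens activation in myeloid cells and is the IgG receptor known from B cells. Fcgr1 binds monomeric IgG with high affinity, whereas Fcgr3 and Fcgr4 take up immune complexes. Fcer1a is the IgE-binding chain of the receptor that arms mast cells and basophils, and Fcmr binds IgM and is known from B cells. The omentum is rich in B1 cells, which make natural IgM, so ligands and receptors of this family meet in the milky spots.

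Cells kept were 8654 for WT and 5727 for Postn-DTR, with 80152223 and 81011081 UMIs and medians of 5635 and 8472 UMIs per cell. The libraries shared 65 cell barcodes. Clusters were named from marker genes that include none of the 7 members, and 11 classes are described here, which hold 4916 WT and 4919 Postn-DTR cells. In each class and library at least 10% of the cells held a UMI of every marker on the list of the class or of all but 1 or 2. The targeted gene could hardly be read, since stromal cells numbered 41 and 15, and Postn was found in 9 and 4 of them at 0.665 and 0.204 UMIs per 10000. Of the 50 Postn UMIs in WT stromal cells, 22 lay in 1 cell. Several classes were small in Postn-DTR, with 15 cDC1-like, 13 pDC-like and 13 mast/basophil-like cells.

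Of the members, 6 lie on chromosome 1 and Fcgr1 on chromosome 3 of the GRCm38 assembly, the build (mm10) that the labels name. Fcgr2b (170958617 to 170976547), Fcgr4 (171018920 to 171029761), Fcgr3 (171051174 to 171064935) and Fcer1g (171229572 to 171234365) stand in a row, with Fcer1a (173221284 to 173227214) further along and Fcmr (130865669 to 130880791) far upstream. Fcgr1 spans 96282909 to 96293969. The 150 bases before the RefSeq start of each member were searched on both strands for GAGGAA, the core that the myeloid and B cell factor PU.1 is known to bind, for GATAA, the core of GATA factor sites, and for TTGCNNAA, a form of the C/EBP site. They are shown for the IgG receptors, so that activating and inhibitory genes can be set side by side, and for Fcer1a, the binding chain for IgE, with matches in capitals, 5′ to 3′ on the strand of the gene.
Fcgr1, chr3:96293970-96294119, minus strand: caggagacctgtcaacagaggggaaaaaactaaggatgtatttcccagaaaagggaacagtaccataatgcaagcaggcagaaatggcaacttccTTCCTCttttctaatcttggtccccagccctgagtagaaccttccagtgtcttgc
Fcgr3, chr1:171059404-171059553, minus strand: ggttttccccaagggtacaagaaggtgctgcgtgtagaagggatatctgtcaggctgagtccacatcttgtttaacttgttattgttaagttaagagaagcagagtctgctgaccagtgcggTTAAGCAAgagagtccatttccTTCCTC
Fcgr4, chr1:171018776-171018925, plus strand: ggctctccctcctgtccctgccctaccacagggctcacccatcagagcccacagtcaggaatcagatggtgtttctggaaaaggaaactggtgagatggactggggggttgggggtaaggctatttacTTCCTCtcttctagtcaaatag
Fcgr2b, chr1:170976072-170976221, minus strand: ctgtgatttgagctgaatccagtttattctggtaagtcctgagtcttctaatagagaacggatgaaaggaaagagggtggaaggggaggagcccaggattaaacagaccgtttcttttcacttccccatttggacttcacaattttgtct
Fcer1a, chr1:173227230-173227379, minus strand: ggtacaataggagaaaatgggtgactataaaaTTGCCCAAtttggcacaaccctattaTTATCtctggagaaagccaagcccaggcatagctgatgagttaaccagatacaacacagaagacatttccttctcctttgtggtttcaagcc
GAGGAA, read as TTCCTC from the other strand, stood in the windows of all 3 activating IgG receptor genes, beginning 55 bases before the start in Fcgr1, 6 in Fcgr3 (15 from a second RefSeq start of that gene) and 22 in Fcgr4. It was also present in the window of Fcmr, 36 bases before the start, and was not found in those of Fcgr2b, Fcer1g and Fcer1a. Of all 32851 RefSeq windows of this length, 14.5% held it. GATAA (13.3% of all windows) was found in Fcer1a and Fcmr, and TTGCNNAA (5.46%) in Fcer1a and Fcgr3. The palindromic site of the B cell factor EBF1 (0.447% of all windows) was found in none of the 7 genes. A match describes these letters only, and a window without one says nothing of the factor.

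Levels are means over cells of UMIs per 10000 UMIs of the cell. Fcer1g was by far the most abundant member. It stood at 42.8 in WT and 42.5 in Postn-DTR mast/basophil-like cells, at 33.4 and 31.3 in monocyte-like cells and at 29.7 and 23.3 in NK-like cells, where it is the partner of Fcgr3. Neutrophil-like, macrophage-like and DC-like cells followed between 18.0 and 22.6 in both libraries. pDC-like cells held 10.1 and 11.7, and cDC1-like cells, the dendritic cells specialised in cross-presentation, only 1.38 and 4.16. In B2 B-like and B1 B-like cells the level was 0.0785 to 0.0920, against 0.111 in WT naive CD4 T-like cells. Thinned to 1000 UMIs per cell, 90.1% of WT NK-like cells (interval 86.7 to 92.9) held an Fcer1g UMI, against 0.686% (0.142 to 1.99) of WT naive CD4 T-like cells, a class that should lack the gene, at median depths of 3957 and 4236 UMIs. The plot of levels by class shows this broad pattern of Fcer1g beside the narrow ones of Fcgr1, Fcer1a and Fcmr.

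**Figure D1:**
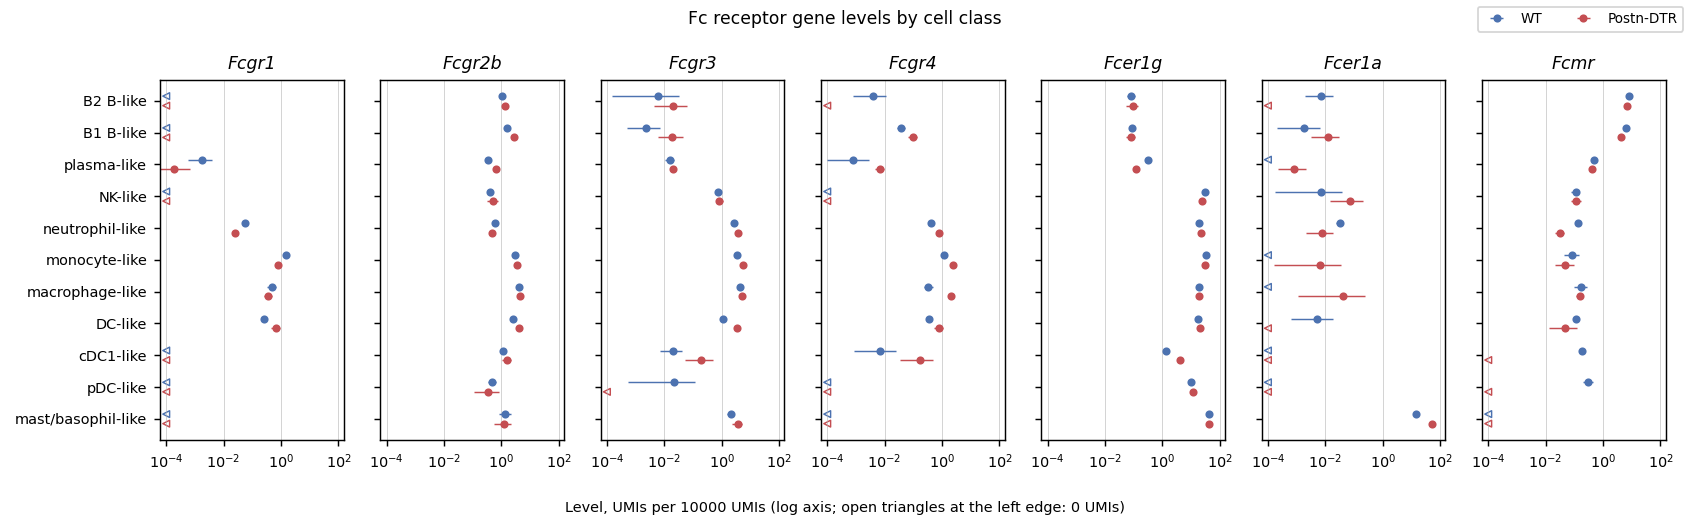
Level of each of the 7 genes (log axis, mean UMIs per 10000 UMIs per cell) in the 11 cell classes of the WT library (blue) and the Postn-DTR library (red). Bars are 95% Poisson intervals of the UMIs scaled to the level, and open triangles mark 0 UMIs. Fcer1a stands at 14.8 and 51.1 in mast/basophil-like cells and at no more than 0.0716 in any other class, and Fcmr exceeds 1 only in the B2 and B1 B-like classes.

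Among the 11 classes, Fcgr1 UMIs lay in monocyte-like, macrophage-like, DC-like and neutrophil-like cells, apart from 5 WT and 2 Postn-DTR UMIs in plasma-like cells. A further 2 WT UMIs lay in CD4 T-like cells. Monocyte-like cells had the highest level, 1.45 in WT (64 of 111 cells with a UMI) and 0.783 in Postn-DTR (56 of 141). In WT, macrophage-like (0.474), DC-like (0.251) and neutrophil-like cells (0.0555) came next, and the counting intervals of neighbours in this order did not overlap. In Postn-DTR the intervals of monocyte-like (0.783) and DC-like cells (0.652) overlapped. No Fcgr1 UMI was found in 1474 WT B2 B-like cells, which allows a share of cells with a UMI of up to 0.204%, or in 386 WT NK-like cells (up to 0.777%). These limits apply to cells with a UMI and not to cells that express the gene. Levels of 4616 genes were compared over the 34 pairs of class and library with at least 20 cells. The 3 genes that ran most closely with Fcgr1 were Clec4a1 (Pearson r = 0.988), Clec4a3 (0.979) and Ms4a6d (0.951). These correlations, like those given below for the other members, run over classes that share 2 libraries and are a description only.

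Fcgr3 was the main activating receptor. WT levels were 4.30 in macrophage-like, 3.46 in monocyte-like and 2.60 in neutrophil-like cells, and Postn-DTR levels were 5.09, 5.36 and 3.62. DC-like cells held 1.11 and 3.28 and mast/basophil-like cells 2.04 and 3.56. NK-like cells, for which this receptor is a textbook marker, held 0.726 in WT (122 UMIs in 92 of 386 cells) and 0.824 in Postn-DTR (54 UMIs in 40 of 147 cells). After thinning, 5.21% of WT NK-like cells retained a UMI (3.21 to 7.93), against 0 of 437 WT naive CD4 T-like cells (upper interval bound 0.841%). Neutrophil-like cells held 53.9% of all Fcgr3 UMIs of the WT library and 55.6% of those of Postn-DTR. Itgam, the α chain of the complement receptor CR3, had the most similar pattern (r = 0.936), followed by Emilin2 (0.915) and Pla2g7 (0.909). Itgam is also on the B1 marker list.

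Fcgr4 was lower and more restricted. WT levels were 1.18 in monocyte-like, 0.416 in neutrophil-like, 0.344 in DC-like and 0.333 in macrophage-like cells, and the intervals of neutrophil-like and DC-like cells overlapped. Postn-DTR levels were 2.34 in monocyte-like, 2.04 in macrophage-like, 0.778 in neutrophil-like and 0.763 in DC-like cells. No Fcgr4 UMI was found in NK-like, pDC-like or mast/basophil-like cells of either library. Thbs1 (r = 0.961), F10 (0.953) and F13a1 (0.9499) ran most closely with it. B1 B-like cells also held Fcgr4, with 45 UMIs in 39 of 1110 WT cells (0.0383) and 31 UMIs in 29 of 496 Postn-DTR cells (0.0949). In the same cells Fcgr3 gave 3 and 5 UMIs, whereas in neutrophil-like and monocyte-like cells Fcgr3 UMIs were several times as many as Fcgr4 UMIs in both libraries (1829 against 194 and 367 against 73 in WT). B2 B-like cells held 3 Fcgr4 UMIs in 1474 WT cells and none in 430 Postn-DTR cells.

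Fcgr2b, the inhibitory receptor, was the only IgG receptor gene with UMIs in all 11 classes of both libraries. It was highest in macrophage-like cells (4.08 in WT, 4.33 in Postn-DTR), monocyte-like cells (3.02 and 3.42) and DC-like cells (2.47 and 4.04), and the intervals of neighbours in this order did not overlap in WT. In Postn-DTR DC-like cells came between the others, and their interval overlapped that of either. B1 B-like cells held 1.53 and 2.68, B2 B-like cells 1.07 and 1.30, cDC1-like cells 1.10 and 1.56, and plasma-like cells 0.348 and 0.660. Naive CD4 T-like cells gave 2 UMIs in 443 WT cells and none in 25 Postn-DTR cells. Rassf4 (r = 0.916), Ctsc (0.889) and Ctsz (0.873) had the most similar patterns. Plasma-like cells made up 7.15% of the WT and 39.0% of the Postn-DTR cells. They carried 11.96% of all Fcgr2b UMIs in WT and 53.0% in Postn-DTR. The parts of cell number and of the level per cell in this difference were not tested. The longest transcripts of Fcgr2b and Fcgr3 share 166 runs of 50 bases, 12.8% of those of Fcgr3 and 4.75% of those of Fcgr2b. Of these, 138 begin in the first 500 bases of Fcgr3 and 80 in the first 500 of Fcgr2b. The labels name a 5′ kit, which would read this end. No other pair of members shared such a run. How reads from the shared stretches were counted is not given in the sources used here, nor is strand, which bears on Fcgr2b and the antisense gene Gm38204 that overlaps it.

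The balance of activating against inhibitory transcripts separated the classes. Fcgr1, Fcgr3 and Fcgr4 together made up 0.540% of IgG receptor UMIs in WT B2 B-like cells (interval 0.147 to 1.38), 3.097% in B1 B-like cells (2.29 to 4.09) and 5.06% in plasma-like cells (3.66 to 6.80). In Postn-DTR these shares were 1.52%, 3.79% and 4.13%. WT shares were 64.2% in NK-like cells (57.0 to 71.0), 75.1% in neutrophil-like cells (73.5 to 76.7), 64.9% in monocyte-like cells (61.8 to 68.0) and 58.1% in macrophage-like cells (54.4 to 61.7). DC-like cells stood between, at 40.1% (37.9 to 42.3), and cDC1-like cells were at 2.23% (0.967 to 4.34), close to the B cell classes. In Postn-DTR the share was 80.2% in neutrophil-like cells (78.9 to 81.5), 71.1% in monocyte-like cells (68.5 to 73.5), 68.7% in macrophage-like cells (66.5 to 70.7) and 53.4% in DC-like cells (48.8 to 57.9). For these 4 classes the share was higher in Postn-DTR than in WT and the intervals of the libraries did not overlap. In cDC1-like cells the share was 16.7% in Postn-DTR, on 7 activating UMIs (6.97 to 31.4). In NK-like cells the intervals overlapped (70.1%, 58.6 to 80.0). Within narrower groups of cells, chosen after the values were seen, the intervals of the libraries overlapped in macrophage-like and DC-like cells too. In the larger part of the macrophage-like cells from a finer clustering the share was 53.8% in WT (49.5 to 58.0) and 54.1% in Postn-DTR (50.3 to 57.9), and in the smaller part, which held 19 WT and 144 Postn-DTR cells, it was 71.8% (64.5 to 78.3) and 76.7% (74.2 to 79.0). In DC-like cells without a UMI of the C1q genes it was 27.3% (24.5 to 30.2) and 33.9% (25.6 to 42.9). The intervals also overlapped within each of the 3 neutrophil-like clusters. Plasma-like cells without cluster 19, which held the most called doublets, had shares of only 0.700% (0.228 to 1.63) and 1.59% (1.20 to 2.05).

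**Figure D2:**
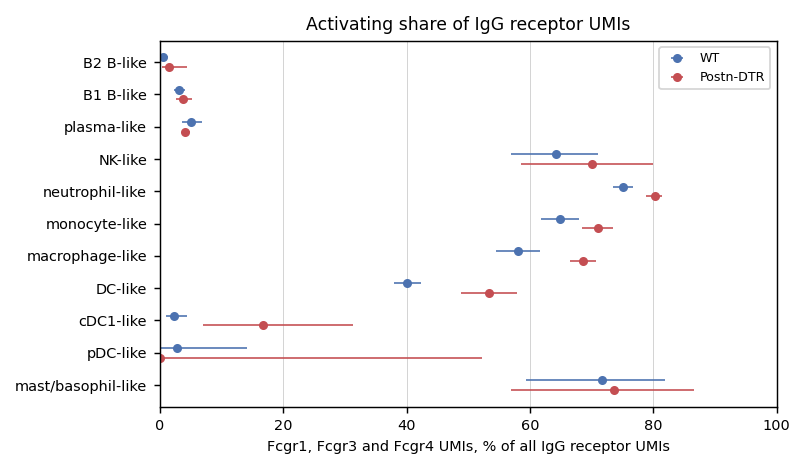
Share of Fcgr1, Fcgr3 and Fcgr4 UMIs among all IgG receptor UMIs (x axis, percent) in each class of the WT (blue) and Postn-DTR (red) libraries, with exact Clopper-Pearson 95% intervals. The B-like and plasma-like classes lie below 6%, and the share in macrophage-like cells is 58.1% in WT and 68.7% in Postn-DTR.

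Next, the level of each member was compared between the libraries within a class. A ratio was formed for the 36 of 77 pairs of member and class with at least 100 UMIs, and 9 of them differed by at least 2-fold, against 8.05% of all pairs of gene and class. The plot of ratios by class gives all 36, from means over cells and from summed UMIs. The median log2 ratio of all genes measured lay within 0.1 of 0 except in macrophage-like (-0.11), DC-like (-0.17), neutrophil-like and cDC1-like cells (both -0.20). With the cells in doubt left out, a choice made after the values were seen, 5 of 28 pairs were past 2-fold, against 7.28% of all pairs of gene and class. These cells are plasma-like cluster 19, the DC-like cells with a C1q UMI and the classes with under 20 cells in a library. Both counts include Fcmr in neutrophil-like cells, a class that should lack it (128 and 36 UMIs), and Fcer1g in plasma-like cells, where it was scarce. Also counted is Fcgr1 in neutrophil-like cells, at -1.15 on the means but -0.22 on summed UMIs (-0.75 to 0.31). Neither count therefore shows that members differ more often than other genes.

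**Figure D3:**
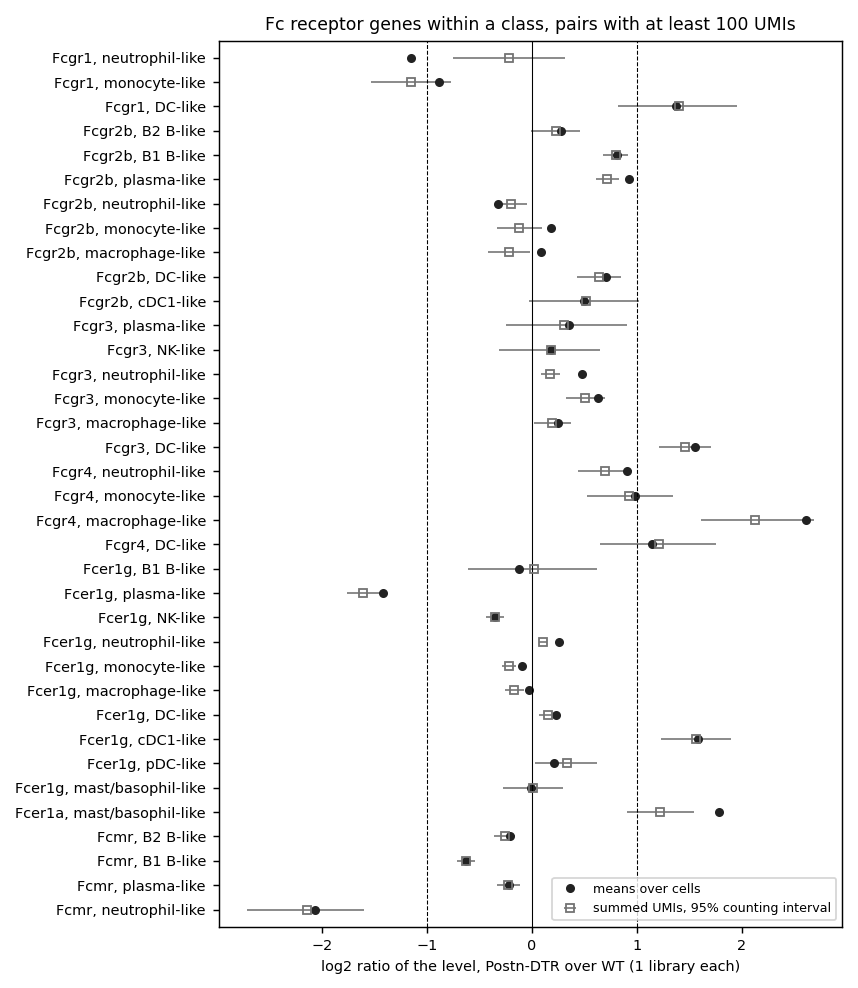
Log2 ratio of the level, Postn-DTR over WT, for each member and class with at least 100 UMIs over both libraries. Filled circles are ratios of means over cells, and open squares are ratios of summed UMIs with conditional binomial 95% intervals. Dashed lines mark 2-fold. Fcgr4 in macrophage-like cells lies furthest to the right at 2.61, and Fcmr in neutrophil-like cells furthest to the left at -2.07.

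In macrophage-like cells Fcgr4 was 0.333 in WT (33 UMIs in 25 of 122 cells) and 2.04 in Postn-DTR (327 UMIs in 153 of 329 cells), a 6.12-fold difference. On the log2 scale this is 2.61 for the means, and summed UMIs gave 2.13 (1.61 to 2.69). It was higher than that of 98.5% of the genes with at least 100 UMIs in the class, of which 9.75% passed 2-fold. After thinning, 5.04% of WT (1.87 to 10.7) and 14.1% of Postn-DTR cells (10.2 to 18.8) held a UMI. The other members differed little there: Fcgr3 had a log2 ratio of 0.25, Fcgr2b of 0.09 and Fcer1g of -0.02, and Fcgr1 gave 30 and 47 UMIs. A finer clustering split the macrophage-like cells in 2, and Fcgr4 was higher in Postn-DTR in both parts, 0.272 against 1.97 in the larger and 0.662 against 2.13 in the smaller, which held 19 WT cells. The 16 neutrophil markers summed to 2.43 in WT macrophage-like cells, with 7 at 0, and to 23.9 in Postn-DTR, with none at 0. In neutrophil-like cells the list summed to 2658 and 2253 and Fcgr4 stood at 0.416 and 0.778. The 12 monocyte markers not shared with the macrophage list were at 77.1 and 79.4, and the 12 plasma markers summed to 12.1 and 52.2. The part of the cells these lists mark in the Fcgr4 value was not tested.

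Monocyte-like cells showed no member past 2-fold, beside 8.71% of all genes. Fcgr4 came closest, with 73 WT UMIs (1.18) and 179 Postn-DTR UMIs (2.34), at a log2 ratio of 0.99 and of 0.93 on summed UMIs (0.53 to 1.34). Thinning to 1000 UMIs gave 1.602. Fcgr3 was at 3.46 and 5.36 (log2 ratio 0.63). Fcgr1 was lower in Postn-DTR, at 1.45 and 0.783, with a log2 ratio of -0.89 and of -1.15 on summed UMIs (-1.53 to -0.77). Thinned to 1000 UMIs, however, the shares of cells with an Fcgr1 UMI were alike, 9.01% (4.41 to 15.9) and 9.22% (5.00 to 15.3). Fcgr2b (log2 ratio 0.18) and Fcer1g (-0.09) lay near 0. The neutrophil marker list summed to 2.45 and 65.2 in these cells, and its part in the Fcgr3 and Fcgr4 values was not tested.

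DC-like cells were named from markers of type 2 and mature dendritic cells. All 3 activating receptors were past 2-fold in this class, where 11.6% of all genes were. Fcgr3 was 1.11 in 437 WT cells and 3.28 in 73 Postn-DTR cells (log2 ratio 1.56), Fcgr1 was 0.251 and 0.652 (1.38), and Fcgr4 was 0.344 and 0.763 (1.15, and 0.80 without the cell richest in it in each library). Fcgr2b was 2.47 and 4.04 (0.71). The 17 macrophage markers summed to 30.7 in WT DC-like cells and to 109.6 in Postn-DTR. The 14 markers on the list of the class itself summed to 104.4 and 93.3, with the highest marker at 84.3 and 73.6. In Postn-DTR the macrophage sum was thus the larger, and the part of macrophages in the receptor values was not tested. Without cells that held a UMI of C1qa, C1qb or C1qc, which encode the macrophage-made complement component C1q, 314 WT and 37 Postn-DTR cells were left. In these, Fcgr3 was 0.536 and 1.26, with a log2 ratio of 1.23 on the means but of 0.60 on summed UMIs (-0.04 to 1.19). Fcgr1 then stood at 0.151 (47 UMIs) and 0.0609 (3 UMIs), a log2 ratio of -0.66 on summed UMIs whose interval spans 0 (-2.99 to 0.97). Fcgr4 stood at 0.137 (41 UMIs) and 0.286 (12 UMIs), and Fcgr2b had a log2 ratio of 0.31.

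The other dendritic classes rested on few Postn-DTR cells. In cDC1-like cells Fcer1g was 1.38 in 151 WT cells and 4.16 in 15 Postn-DTR cells (log2 ratio 1.59), beside 15.2% of all genes past 2-fold. The neutrophil marker list summed there to 3.07 and 34.9, with 1 and 6 of 16 markers at 0, and its part in the Fcer1g value was not tested. Fcgr2b was 1.10 and 1.56 (0.50). In pDC-like cells Fcer1g was 10.1 in 61 and 11.7 in 13 cells (0.21), and 5.76% of all genes passed 2-fold. pDC-like cells held no Fcgr1 or Fcgr4 UMI and 1 Fcgr3 UMI.

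Neutrophil-like cells formed 3 clusters that differed in stage markers. Cluster 11 was led by Elane and Mpo, primary granule genes of precursors, cluster 12 by Ltf and Ngp, secondary granule genes, and cluster 8 by Cxcr2 and Il1r2, found in mature cells. They held 178, 183 and 58 WT cells and 285, 268 and 475 Postn-DTR cells. Fcgr3 stood at 1.87 in WT and 1.93 in Postn-DTR in cluster 11, at 2.58 and 2.57 in cluster 12 and at 4.90 and 5.22 in cluster 8. Fcgr4 was 0.144 and 0.224, then 0.563 and 0.585, then 0.787 and 1.22. Fcer1g was 11.4 and 11.3, then 23.3 and 19.7, then 27.5 and 31.0. Fcgr2b ran the other way from cluster 11 (0.968 and 0.807) to cluster 12 (0.383 and 0.260) and gave 4 and 58 UMIs in cluster 8. Of the 124 Fcgr1 UMIs of the class, 123 lay in cluster 11. The activating share accordingly was 69.2% and 72.4% in cluster 11, 86.7% and 89.9% in cluster 12 and 97.4% and 93.8% in cluster 8. The plot of the neutrophil-like clusters shows the same order of clusters in both libraries for Fcgr3, while Fcgr2b was lowest in cluster 8 in WT and in cluster 12 in Postn-DTR.

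**Figure D4:**
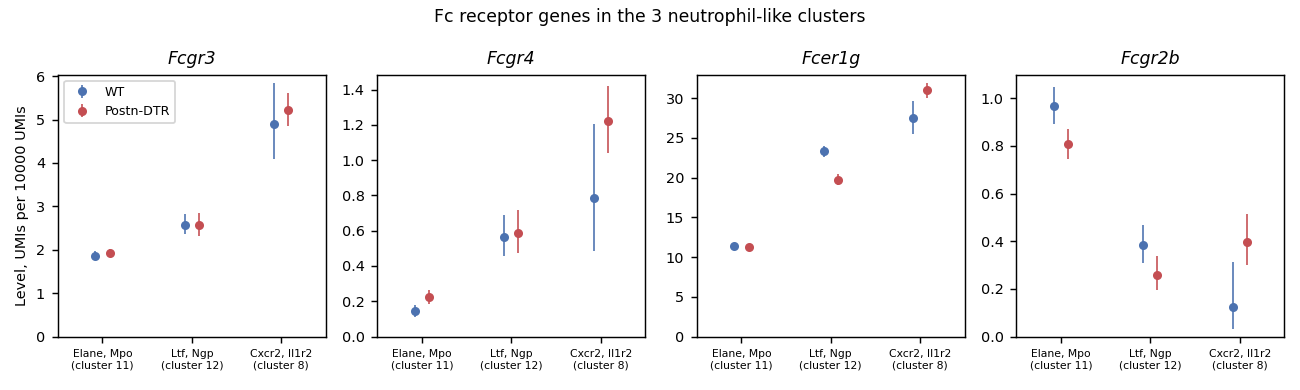
Level (UMIs per 10000 UMIs) of 4 genes in the 3 neutrophil-like clusters, named by leading genes, in WT (blue) and Postn-DTR (red), with 95% Poisson intervals of the UMIs scaled to the level. Fcgr3 is 1.87 and 1.93 in the first cluster and 4.90 and 5.22 in the last.

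Over the neutrophil-like class as a whole, where 10.7% of all genes passed 2-fold, Fcgr3 had a log2 ratio of 0.48 and Fcgr4 of 0.90. Within clusters 8, 11 and 12 the ratio of Fcgr3 was 0.09, 0.05 and -0.01, and that of Fcgr4 was 0.63, 0.64 and 0.05. None of the Fcgr3, Fcgr4 or Fcer1g ratios passed 2-fold within a cluster, where 9.11%, 3.36% and 3.46% of all genes did. The 2 members past 2-fold in the whole class were scarce. Fcgr1 was 0.0555 (60 UMIs) and 0.0250 (64 UMIs), with a log2 ratio of -1.15 on the means and of -0.22 on summed UMIs (-0.75 to 0.31). Within cluster 11, which made up 178 of the 419 WT but 285 of the 1028 Postn-DTR cells, it was -0.51 on the means and not past 2-fold. Fcmr was 0.130 in WT (128 UMIs in 25 of 419 cells, 27 of them in 1 cell) and 0.0309 in Postn-DTR (36 UMIs in 16 of 1028 cells), with a log2 ratio of -2.07, which was -0.53 after thinning to 1000 UMIs. The 12 B2 markers summed to 5.03 and 4.91 in the class, and the median depth was 13748 and 4513.5 UMIs.

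NK-like cells differed little. Fcer1g was 29.7 in WT and 23.3 in Postn-DTR (log2 ratio -0.35, and -0.44 to -0.27 on summed UMIs), and Fcgr3 was 0.726 and 0.824 (0.18). No member passed 2-fold, as 1.68% of all genes in the class did. Tyrobp, the adaptor of other activating NK receptors and the gene with the pattern most like Fcer1g (r = 0.872, followed by Cers6 with 0.867 and Cd244a with 0.843), was 35.4 and 22.7 there.

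Turning to the B lineage, Fcmr was 7.85 in WT and 6.78 in Postn-DTR B2 B-like cells (log2 ratio -0.21) and 6.50 and 4.20 in B1 B-like cells (-0.63, and -0.71 to -0.55 on summed UMIs). After thinning, 50.7% of WT and 44.4% of Postn-DTR B2 B-like cells held a UMI, and 44.2% (41.2 to 47.2) and 31.0% (27.0 to 35.3) of the B1 B-like cells. Neutrophil-like cells, which should lack the gene, gave 0.719% and 0.397%. Median depths were 8439.5 and 6531 UMIs in B1 B-like cells. Fcgr2b differed in the other direction. It was 1.53 in WT B1 B-like cells (684 of 1110 with a UMI) and 2.68 in Postn-DTR (357 of 496), with a log2 ratio of 0.81 (0.68 to 0.92 on summed UMIs), and 1.07 and 1.30 in B2 B-like cells (0.28). Thinned shares for Fcgr2b were 13.4% (11.5 to 15.6) and 19.2% (15.8 to 22.9) in B1 B-like cells. Both genes stayed below 2-fold, which 3.34% of all genes in B1 B-like and 2.76% in B2 B-like cells passed. Among the genes of B1 B-like cells, the Fcgr2b ratio was above 97.1% of the ratios and that of Fcmr above 5.28%. The B cell genes Ms4a1 (r = 0.986) and Ebf1 (0.972) were among those that ran most closely with Fcmr. Ms4a1 is on the marker lists that named the B cell classes.

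Plasma-like cells, of which WT gave 619 and Postn-DTR 2234, held Fcgr2b and Fcmr at lower levels than B cells. Fcgr2b was 0.348 and 0.660 (log2 ratio 0.92, and 0.61 to 0.83 on summed UMIs), which was 1.03 with immunoglobulin, mitochondrial and ribosomal genes left out of the totals, and Fcmr was 0.466 and 0.400 (-0.22). The difference in Fcgr2b was not the same in all clusters. The log2 ratio was 1.31 in cluster 3, 0.84 in cluster 4, 0.43 in cluster 14 and 1.11 in cluster 19 (0.34 to 1.21 on summed UMIs). It was -0.51 in cluster 18, which was led by cell cycle genes and held 45 WT cells. Fcmr was higher in Postn-DTR in cluster 3 (0.59) and lower in the other 4, with -0.94 in cluster 4, -1.47 in cluster 14, -2.85 in cluster 18 and -1.07 in cluster 19, where summed UMIs gave -0.09 (-0.65 to 0.48). Of all genes, 7.68% passed 2-fold in cluster 3, 10.5% in cluster 4, 8.21% in cluster 14, 6.99% in cluster 18 and 22.2% in cluster 19. Over the whole class, where 9.81% of all genes passed 2-fold, Fcer1g was the only member that did. It was 0.327 in WT (87 cells with a UMI) and 0.122 in Postn-DTR (118 cells), with a log2 ratio of -1.42. Cluster 19, in which 13.6% of cells were called doublets, held 401 of the 695 WT and 462 of the 660 Postn-DTR Fcer1g UMIs. Without it, Fcer1g was 0.172 and 0.0374 (log2 ratio -2.20), Fcgr2b 0.346 and 0.649 (0.91) and Fcmr 0.465 and 0.413 (-0.17). The level in WT naive CD4 T-like cells, which should lack Fcer1g, lay between these 2 Fcer1g values. The Fcer1g ratio in plasma-like cells thus rests on low values. The neutrophil marker list summed to 1.30 and 4.96 and the NK list to 0.446 and 0.0751 in plasma-like cells, and their part in the Fcer1g value was not tested.

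To relate the receptors to the antibody a cell makes, plasma-like cells were split by the heavy-chain constant gene with over 50% of at least 100 constant-region UMIs, a split chosen after the values were seen. IgM cells numbered 510 in WT and 1876 in Postn-DTR, and IgG cells 79 and 306. Fcmr was 0.520 and 0.466 in IgM cells, with a UMI in 42.5% and 34.5% of them. In IgG cells it was 0.219 (14 of 79 cells) and 0.0345 (16 of 306 cells), lower than in IgM cells of the same library in both. The log2 ratio between libraries was -0.16 in IgM cells and -2.67 in IgG cells (-3.09 to -1.85 on summed UMIs). Fcgr2b, whose ligand is IgG, was 0.316 and 0.655 in IgM cells (log2 ratio 1.05) and 0.575 and 0.710 in IgG cells (0.30, and -0.22 to 0.27 on summed UMIs). IgG cells thus stood above IgM cells in WT, whereas in Postn-DTR the counting intervals of the 2 overlapped. Cluster 14 held 64 of the 79 WT and 263 of the 306 Postn-DTR IgG cells. Without cluster 19 the ratios of Fcmr and Fcgr2b in these cells were -2.71 and 0.31. No share of all genes past 2-fold was formed within IgM or IgG cells.

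**Figure D5:**
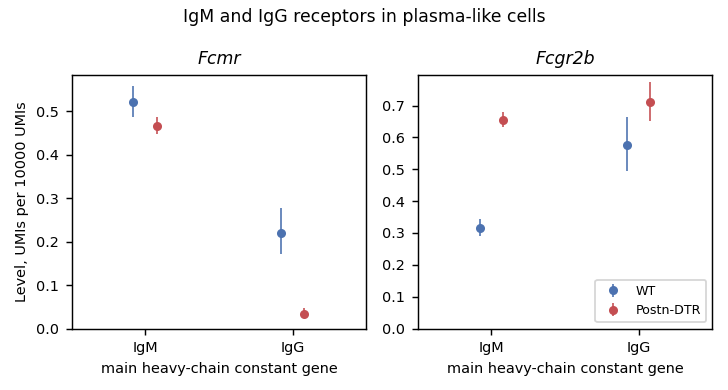
Level (UMIs per 10000 UMIs) of Fcmr and Fcgr2b in plasma-like cells whose main heavy-chain constant gene is that of IgM or IgG, in WT (blue) and Postn-DTR (red), with 95% Poisson intervals of the UMIs scaled to the level. Fcmr in IgG cells is 0.219 in WT and 0.0345 in Postn-DTR, and Fcgr2b in IgM cells is 0.316 and 0.655.

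Fcer1a marked a small population. In the mast/basophil-like cluster it was 14.8 in WT (178 UMIs in 19 of 26 cells, highest cell 37) and 51.1 in Postn-DTR (156 UMIs in 12 of 13 cells, highest cell 40), with a log2 ratio of 1.79 on the means and of 1.23 on summed UMIs (0.91 to 1.54), and of 0.99 among cells with at least 500 genes. Of all genes in the class, 14.5% passed 2-fold. Tpsab1 (r = 0.994), Csrp3 (0.991) and Mcpt8 (0.991) ran most closely with it, and Tpsab1 and Mcpt8 are on the marker list of the class. The correlations used pairs of class and library with at least 20 cells, so of this class only the WT cells entered. These r values thus rest on 1 pair in which the gene is high. Fcer1g was 42.8 and 42.5 in these cells (log2 ratio -0.01), and Ms4a2, the β chain of the IgE receptor, was 4.50 and 4.17. The median depth was 2064 and 1775 UMIs. A gate that needed UMIs of 3 of 12 mast cell and basophil genes found 35 WT (0.404% of cells) and 17 Postn-DTR cells (0.297%), of which 20 and 15 held an Fcer1a UMI. On the mast cell side of the gate the level was 11.4 in 26 WT and 50.3 in 12 Postn-DTR cells, with a UMI in 13 and 11 of them. On the basophil side it was 11.4 in 9 and 23.4 in 4 cells. Outside this class Fcer1a was near 0, and 48 of the 49 WT UMIs in neutrophil-like cells lay in 1 cell.

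Of 34 further Fc receptor, adaptor and signalling genes, those with at least 100 UMIs in a class were compared in the same way. Their median log2 ratio lay between -0.63 in plasma-like cells and 0.14 in neutrophil-like cells, where the medians of all genes measured were 0.03 and -0.20. In B2 B-like cells (all genes 2.76%) 1 of 22 partner genes was past 2-fold: Fcer2a, the low-affinity IgE receptor CD23, at 5.00 in WT and 2.30 in Postn-DTR. Fcer2a is on the marker list that named the B2 class. In B1 B-like cells (all genes 3.34%) 4 of 24 were. Fcer2a was 0.734 and 0.148, Pigr, the polymeric Ig receptor, 0.121 and 0.0207, and Fcgrt, the neonatal Fc receptor, 0.225 and 0.110, while the phospholipase gene Plcg1 was higher in Postn-DTR (0.0620 and 0.235). In plasma-like cells 8 of 25 were at least 2-fold lower in Postn-DTR, as 5.97% of all genes were, and none was 2-fold higher. Furthest were Ptpn6, an inhibitory phosphatase (0.869 and 0.177), and Lat, an adaptor of T and mast cells (0.0893 and 0.0183), and without cluster 19 the count was 8 of 23, against 5.48% of all genes. The NK marker list summed to 0.446 and 0.0751 in these cells, and its part in these values was not tested.

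Among myeloid classes, Syk, the kinase that binds the γ chain, was 1.53 and 3.12 in neutrophil-like cells and Gab2 0.248 and 0.503, whereas Fyn (0.132 and 0.0204) and Lat (0.173 and 0.0258) were lower, which made 4 of 22 beside 10.7% of all genes. On summed UMIs the log2 ratios of Syk and Gab2 were 0.46 and 0.41. In monocyte-like cells the adaptor Lat2 was lower in Postn-DTR (0.865 and 0.357). Macrophage-like cells had 2 of 13 (all genes 9.75%), both higher: the adaptor Hcst (0.834 and 1.78) and the kinase Fgr (0.225 and 0.562). In DC-like cells 3 of 23 passed (all genes 11.6%), with Fcgrt higher (0.871 and 2.07), Fcrls lower (0.865 and 0.0699) and Lat at 169 WT UMIs and none in Postn-DTR. cDC1-like cells had Fcrla higher (0.539 and 1.17) and Plcg2 lower (1.12 and 0.522) of 17 (all genes 15.2%), and pDC-like cells Pik3cd higher (1.62 and 3.24) of 9 (all genes 5.76%). NK-like cells had 1 of 15 (all genes 1.68%), Ptpn6 (1.16 and 0.579), and mast/basophil-like cells none of 2.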

How the data were processed

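The authors aligned and counted the reads, with Cell Ranger 6.0.0 and the mm10 build per the submitters' processing notes. The labels name a 5′ kit, whereas the methods of the study name a 3′ kit, so the end of the transcript that was read is uncertain. The values deposited by the authors are the natural log of 1 plus UMIs per 10000 UMIs of a cell, to 3 decimals. Dividing by the value of 1 UMI gave whole UMIs within 0.1 UMI for 99.96% (WT) and 99.91% (Postn-DTR) of the values.

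Cells with 200 to 7500 genes and at most 25% mitochondrial UMIs were kept. They were clustered in Seurat 5.3.0 (R 4.3.3, sctransform 0.4.2, 3000 variable features, 30 principal components, resolution 0.8) without the 7 members and 342 antibody and T cell receptor segments, which gave 31 clusters. A marker counted where its mean was 2 times that of the other cells and at least 10% of cells held it, and a name needed 3 counted markers and a score of 0.5. Of the clusters, 6 stayed unnamed (6.42% of WT and 1.99% of Postn-DTR cells). Scrublet (in scanpy 1.11.5) set a threshold that marked 2 WT cells, so a score of 0.25 was used for both libraries (1.56% and 1.80% of cells), and doublets were kept in the main values. Both the thresholds for naming and this score were chosen with the clusters in view.

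A level is the mean over cells of UMIs per 10000. Ratios were formed where both libraries together held 100 UMIs, and a pair was called past 2-fold. Intervals are exact Poisson, Clopper-Pearson or conditional binomial (scipy 1.17.1) and cover counting error only. Thinning drew 1000 UMIs per cell. A gene found in no cell allows a share of up to 3 counts. With 1 pooled library per group no test was made. Named are all members, the partner genes past 2-fold (at most 2 in each direction and class) and the 3 genes most like each member by Pearson correlation of log2 (level + 0.1), apart from a few that are not reported here. Alternatives changed the scaling, doublets, the gene minimum, the clustering, the cells and the depth. The code was tested on simulated data. Promoters are from RefSeq (GRCm38.p6) and gene positions from GENCODE. The members and lists were chosen with earlier results of these data known.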

Additional observations from a re-analysis of the deposited data

Results flagged for a closer look

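Fcer1g was also present in NKT-like and ILC3-like cells, which the comparisons above do not use, above its level in naive CD4 T-like cells. The level, in UMIs per 10000, was 10.5 for WT and 8.96 for Postn-DTR NKT-like cells and 17.7 and 16.3 for ILC3-like cells. Thinned to 1000 UMIs, 288 of 513 WT (56.1%) and 47 of 98 Postn-DTR NKT-like cells (48.0%) held a UMI. So did 46 of 55 WT (83.6%) and 41 of 50 Postn-DTR ILC3-like cells (82.0%), against 3 of 437 (0.686%) WT and 0 of 24 Postn-DTR naive CD4 T-like cells. The NKT-like cluster counted 9 of 10 markers of its own list but also 7 of 12 of the NK list. The part of NK cells in its Fcer1g value was not tested.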

How the results depend on the processing

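No paired analysis was possible because each group is 1 library. Under the alternatives no log2 ratio past 2-fold changed sign where at least 100 UMIs remained, whereas Fcgr1 in DC-like cells, with under 100 UMIs left, was lower in Postn-DTR once cells with a C1q UMI were left out. Most moved by less than their counting interval (69 of the principal values and 284 of the others, against 13 and 89). Thinned to 1000 UMIs, the log2 ratios in monocyte-like cells were 0.10 for Fcgr1, 0.26 for Fcgr3 and 1.602 for Fcgr4. In macrophage-like cells Fcgr2b was at -0.22 on summed UMIs and at 0.39 in finer cluster 20 alone. In mast/basophil-like cells Fcer1a was at 1.23 on summed UMIs, 0.99 with at least 500 genes and 1.40 after thinning, and Fcer1g at -0.34 with at least 500 genes. Pairs of partner gene and class past the call numbered 62 at 1.5-fold, against 28 at 2-fold, of which 8 lay in plasma-like cells. Of all pairs of gene and class 8.05% passed 2-fold. The partner pairs measured are not totalled here, so the 28 cannot be read as a share. The share of all pairs past 1.5-fold is not given here, so the 62 cannot be set against it. A gate of 2 markers held 174 WT and 83 Postn-DTR cells. Without the cells in doubt 5 pairs of member and class were past 2-fold. The causes were not tested. Small classes and low depth, as in mast/basophil-like cells, limit all of these values.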

Other observations

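Fcgr3 was also found in NKT-like cells, at 0.194 in WT (48 UMIs in 40 of 516 cells) and 0.132 in Postn-DTR (5 UMIs in 4 of 99 cells), and no Fcgr4 UMI was found there. In ILC3-like cells Fcgr3 gave 1 UMI in 55 WT cells and 7 UMIs in 50 Postn-DTR cells. ILC2-like cells held Fcer1g at 0.202 and 0.301, far below the ILC3-like level.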
